A study of Mus musculus with 12 samples.

Results

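The genes that build, cross-link and degrade the extracellular matrix of the liver, together with markers of hepatic stellate cells and the TGF-beta ligands, were followed in the livers of 3 genotypes of mice. The 68 genes were chosen by symbol: every collagen chain in the count table (44 genes whose symbol has the form of a collagen, an alpha chain number included) and 24 named matrix, stellate cell and TGF-beta genes, out of 24411 genes listed. Poly(A) RNA of whole liver from 3-month-old mice was sequenced for 3 cont. (*Atg7flox/flox*), 3 *Atg7*-KO (*Atg7flox/flox*;*Alb*-Cre) and 3 *Atg7*-KO;*p62T352A* mice (*Atg7flox/flox*;*Alb*-Cre;*p62T352A/p62T352A*), so that both *Atg7* alleles were floxed in all of them. *Alb*-Cre acts in hepatocytes, and the stellate cells, endothelium and macrophages of all 3 genotypes therefore kept an intact *Atg7* gene, whereas the *p62T352A* exchange, which takes away the retention of KEAP1 in p62 bodies, was a knock-in carried by every cell. The comparisons ask how the matrix genes differ when hepatocytes lose autophagy, and whether p62 that cannot retain KEAP1 alters this.

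Collagens are trimers of alpha chains that are hydroxylated and folded in the endoplasmic reticulum, secreted, trimmed and cross-linked by lysyl oxidases. In the liver, fibrillar collagens I and III are mainly made by hepatic stellate cells, the vitamin A-storing pericytes of the sinusoids, and by portal fibroblasts, and their rise together with TIMP1 and matrix metalloproteinases is the textbook signature of fibrosis. TGF-beta is the best known inducer of this programme, whereas collagen XVIII, the precursor of endostatin, is a known product of hepatocytes.

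Library totals were between 9671073 and 23285134 counts, and the 68 genes took 0.218% to 0.271% of them in cont., 0.459% to 0.551% in the *Atg7*-KO and 0.207% to 0.255% in *Atg7*-KO;*p62T352A* mice. Values are given as normalized CPM (counts scaled to a common library size by edgeR's TMM method), in the order of the mouse numbers. The TMM factors differed by genotype: 0.750 to 0.953 in cont., 1.28 to 1.32 in the *Atg7*-KO and 0.823 to 0.951 in *Atg7*-KO;*p62T352A* mice. A factor over 1 lowers the normalized CPM of a library relative to its share of raw counts, so levels and overlaps hold on this scale. The deleted gene, *Atg7*, had 810, 467 and 504 counts in cont., 209, 233 and 281 in the *Atg7*-KO and 416, 391 and 452 in *Atg7*-KO;*p62T352A* mice. Scaled by library size these were 46.4, 44.2 and 55.4 CPM in cont., 10.1, 9.57 and 12.0 in the *Atg7*-KO and 29.7, 27.4 and 29.5 in *Atg7*-KO;*p62T352A* mice, and the 3 genotypes did not overlap. The *Atg7*-KO;*p62T352A* mice thus held more *Atg7* transcript than the *Atg7*-KO mice and differed from them in this as well as in p62. These are counts per gene and do not show from which exons the reads came. At the protein level, the study reported ATG7 and LC3-II as nearly undetectable in *Atg7*-KO livers with or without a p62 mutation. The part of this RNA difference in the results was not tested. The mice numbered 1 had 7 to 28 counts of the X-inactivation transcript *Xist* and the other 6 had 8578 to 18335. This difference ran with the mouse number in every genotype, and the main fit had no term for it. Of 7 hepatocyte markers in the table, 6 were called lower in the livers of *Atg7*-KO mice (most of all *Serpina1c*, -2.25 on the log2 scale) and 5 were called higher in *Atg7*-KO;*p62T352A* than in *Atg7*-KO mice, and *Cps1* was called lower in *Atg7*-KO;*p62T352A* than in cont. mice, while none was called lower there in the 6 fits that left out 1 *Atg7*-KO or *Atg7*-KO;*p62T352A* mouse, and 2 were without cont. mouse 3. Their summed level was 74753 to 140837 CPM in cont., 39250 to 42158 in the *Atg7*-KO and 111901 to 129727 in *Atg7*-KO;*p62T352A* mice. Of 8 macrophage markers 7 were called higher in *Atg7*-KO and the same number lower in *Atg7*-KO;*p62T352A* than in *Atg7*-KO mice, with summed levels of 186 to 267, 780.2 to 816 and 137 to 270.4 CPM in the same order. In RNA of whole liver, more cells of a type and more RNA per cell cannot be told apart, and the part of these shifts in the results was not tested.

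Most of the matrix genes rose in *Atg7*-KO livers and were lower in *Atg7*-KO;*p62T352A* than in *Atg7*-KO livers. Few of them, and few of all tested genes, were called between *Atg7*-KO;*p62T352A* and cont. mice. A gene was called at a Benjamini-Hochberg adjusted p under 0.05 in edgeR's quasi-likelihood test over 13922 tested genes, with a fold change over 1.5. The filter on low counts let 53 of the 68 genes pass, 29 of them collagens. It needs counts in only as many mice as 1 genotype has. Genes, both of the 68 and of the lists described further on, could therefore pass through the 1 genotype in which they were high. Between *Atg7*-KO and cont. mice 37 of the 53 were called higher, against a background of 21.6% of all tested genes, and 7 were called lower, against 22.1%. The median log2 fold change of the 53 genes was 1.61, and that of all tested genes was -0.032. With at least 10 counts required in every mouse, 32 of the 44 calls remained and 12 were lost. The 7 that fell were all collagens. Among the 29 tested collagens 15 rose, against the same 21.6% of all tested genes. The 7 of 29 that fell were near the 22.1% of all tested genes.

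The *Atg7*-KO;*p62T352A* mice were compared with the same *Atg7*-KO and cont. mice, so the contrasts share samples. Against *Atg7*-KO, 39 of the 53 genes were called lower in *Atg7*-KO;*p62T352A* mice (background 26.2%) and 5 were called higher (background 24.7%), with a median log2 fold change of -1.61 against 0.0021 for all genes. Against cont., 7 were called higher (background 6.25%) and 1 was called lower (background 5.34%), with a median of 0.029 against 0.0044. The remaining 45 of the 53 genes were not called between *Atg7*-KO;*p62T352A* and cont. mice, and neither were 12309 of all 13922 tested genes. The lack of a call in this contrast was thus not particular to the matrix genes. The backgrounds of all contrasts also apply to every count of a class or list. They belong to single contrasts. The share of all tested genes that followed each of the joint courses named next was not counted, so those numbers have no background. In groups, 30 genes rose in *Atg7*-KO, were lower in *Atg7*-KO;*p62T352A* than in *Atg7*-KO mice and were not called against cont., and 6 more (*Col1a2*, *Col3a1*, *Loxl1*, *Mmp12*, *Mmp13* and *Timp1*) followed this course but were still called higher than in cont. mice. Decorin (*Dcn*) was called higher in both *Atg7*-deficient genotypes and was not called between them. Of the 7 genes that fell in *Atg7*-KO, 5 (*Col5a3*, *Col7a1*, *Col18a1*, *Col20a1* and *Col27a1*) were higher in *Atg7*-KO;*p62T352A* than in *Atg7*-KO mice, *Col13a1* was lower than in cont. in both genotypes and *Col11a2* was called in the first contrast alone. Another 3 (*Col4a4*, *Col5a1* and *Col12a1*) were called lower in *Atg7*-KO;*p62T352A* than in *Atg7*-KO mice without a call in *Atg7*-KO, and *Col4a3*, *Col9a3*, *Col16a1*, *Col23a1*, *Des* and *Fn1* were not called in any contrast.

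In *Atg7*-KO livers, all 3 mice lay above all 3 cont. mice for 40 of the 53 genes (29.2% of all tested genes) and below them for 5 (26.3%). For *Atg7*-KO;*p62T352A* against *Atg7*-KO mice, 40 genes lay below without overlap (36.8% of all tested genes) and 7 above (36.4%). Against cont. mice the *Atg7*-KO;*p62T352A* mice lay above for 9 genes (15.5%) and below for 2 (11.2%), and the groups overlapped for 42.

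**Figure D1:**
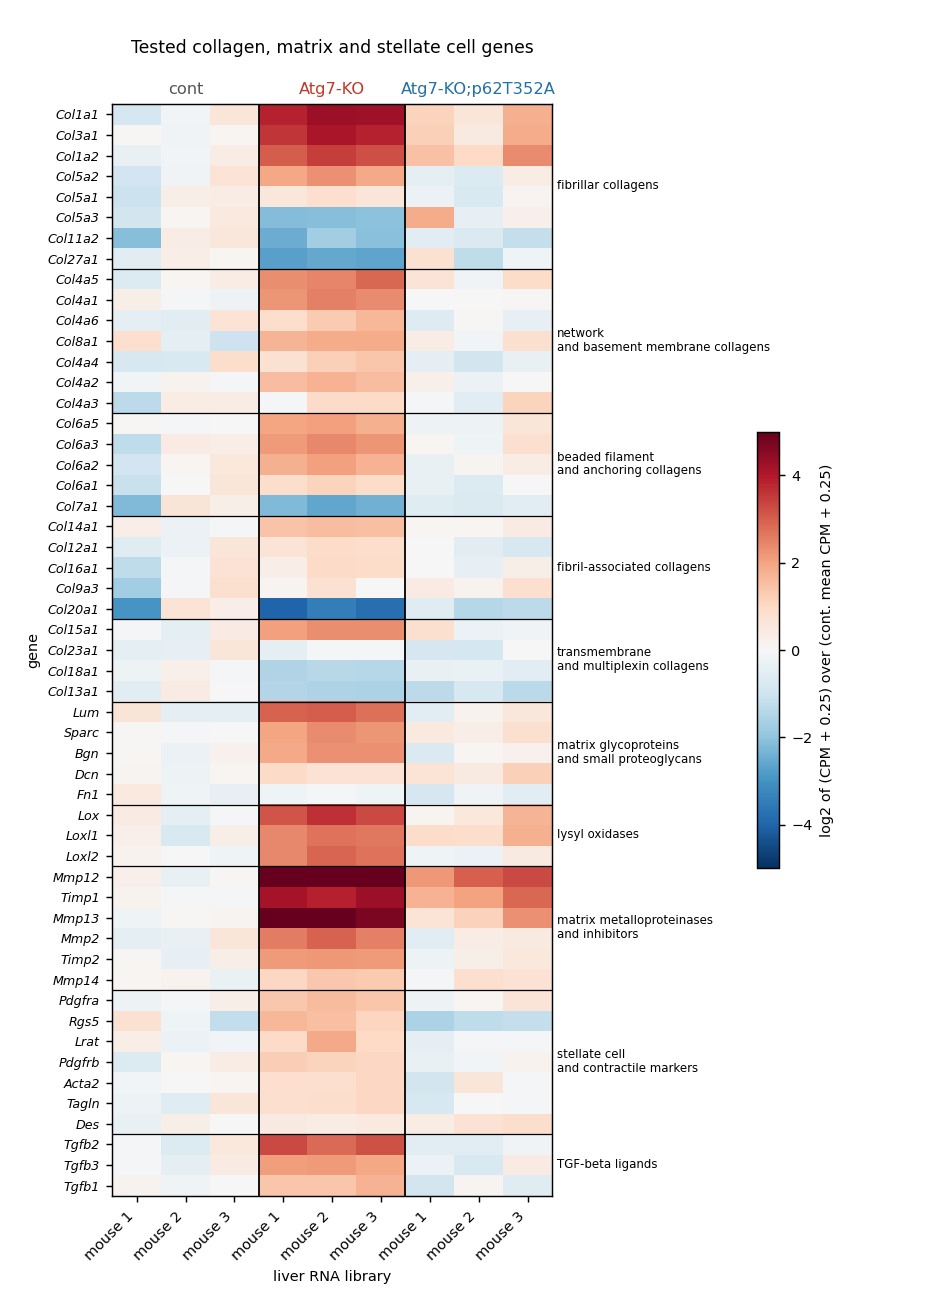
Heat map of the 53 tested genes (rows, by class) in the 9 liver libraries (columns, 3 mice per genotype). Colour shows the log2 of each mouse's normalized CPM over the cont. mean, with 0.25 added to both; values beyond the colour bar take its end colour. Red fills most rows of the Atg7-KO mice, 7 collagens are clearly blue there, and most rows of the Atg7-KO;p62T352A mice are pale.

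**Figure D2:**
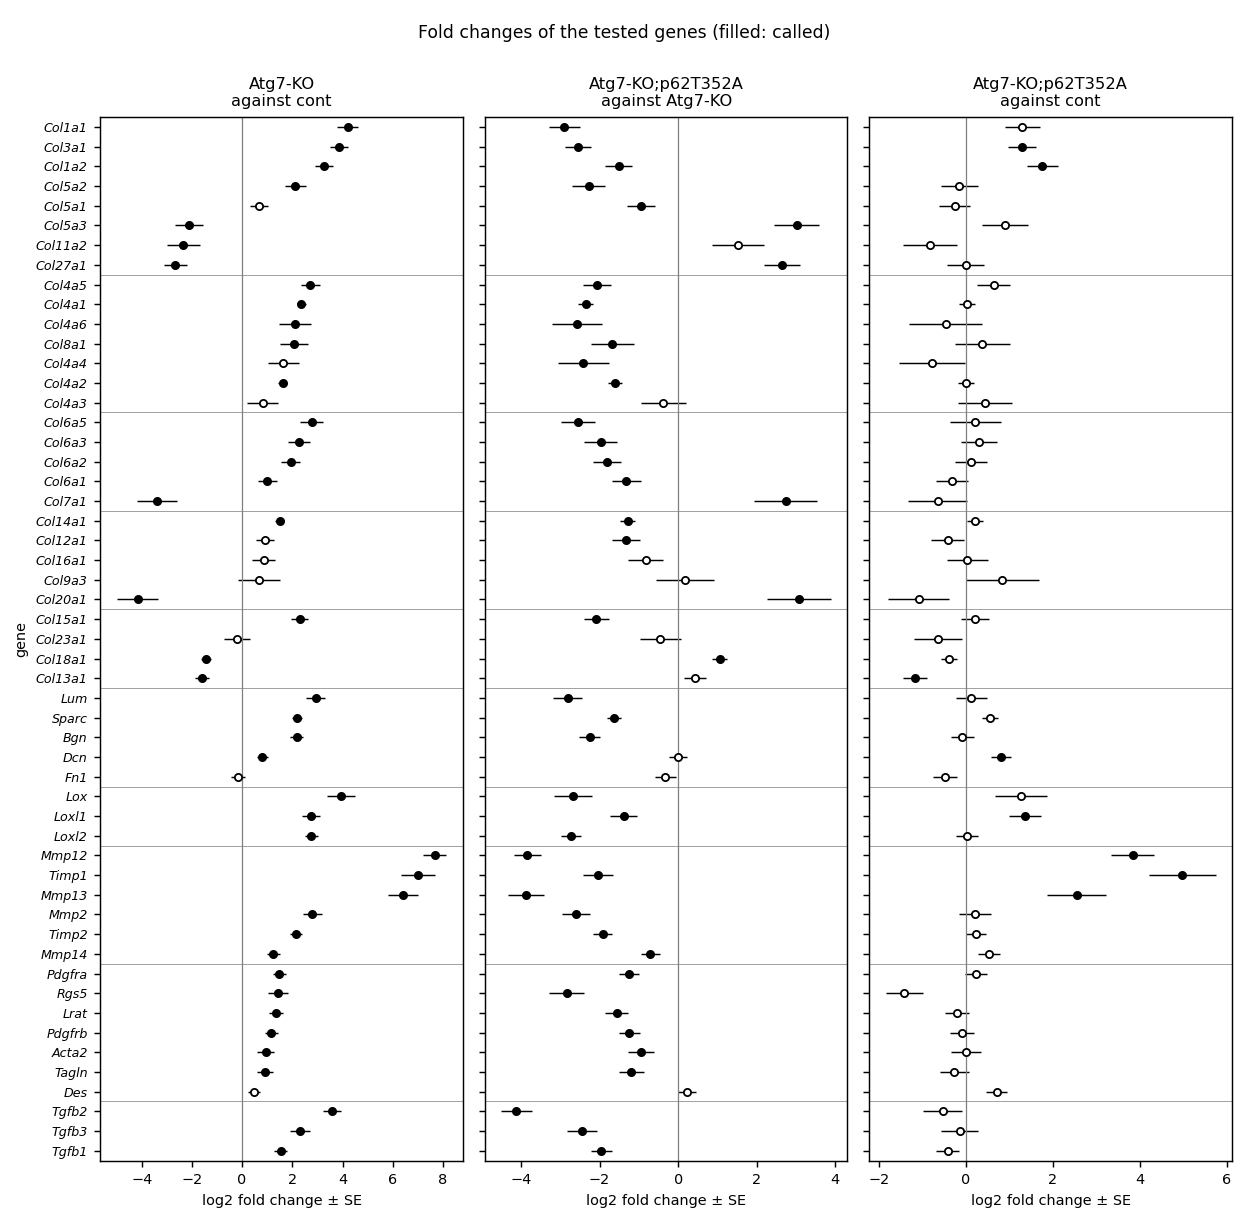
Log2 fold changes of the 53 tested genes (points, with standard errors as bars) for the 3 contrasts from edgeR's quasi-likelihood fit; filled points were called. In the left panel 37 filled points lie to the right of 0 and 7 to the left, in the middle panel 5 and 39, and in the right panel 7 and 1.

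Before the values, the promoters of 6 genes are shown, 4 that rose steeply in *Atg7*-KO (*Mmp13*, *Mmp12*, *Timp1* and *Col3a1*) and 2 that fell and were higher again in *Atg7*-KO;*p62T352A* mice (*Col27a1* and *Col5a3*). The sequences are RefSeq's for build GRCm38.p6, whose table held windows for 49 of the 68 genes, not including *Col1a1*, *Col2a1*, *Col4a3*, *Col5a2*, *Col9a3*, *Col12a1*, *Col14a1*, *Col22a1*, *Col26a1*, *Dcn*, *Fn1*, *Lox*, *Loxl1*, *Loxl2*, *Lum*, *Mmp2*, *Pdgfrb*, *Tagln* and *Tgfb3*. Each is the 250 bases before a start of transcription, written 5′ to 3′ on the gene's strand. Capitals mark matches on either strand to 6 sets of letters, listed with the share of all 32851 promoter windows that hold them: the AP-1 site TGANTCA (6.75%) and its variant TGAGTAA (2.25%), the core of the antioxidant response element TGACNNNGC (10.2%), the CCAAT box (33.8%), the TATA box TATAAA (12.4%) and the GC box GGGCGG (32.7%). The windows shown do not overlap an annotated exon. That of *Mmp13* is at chr9:7272264-7272513 (plus strand), that of *Mmp12* at chr9:7347124-7347373 (plus strand, in an intron of the gene model), that of *Timp1* at chrX:20869916-20870165 (plus strand) and that of *Col3a1* at chr1:45311288-45311537 (plus strand). Those of the genes that fell are at chr4:63215162-63215411 (*Col27a1*, plus strand, in an intron of the gene model) and chr9:20815068-20815317 (*Col5a3*, minus strand).
Mmp13: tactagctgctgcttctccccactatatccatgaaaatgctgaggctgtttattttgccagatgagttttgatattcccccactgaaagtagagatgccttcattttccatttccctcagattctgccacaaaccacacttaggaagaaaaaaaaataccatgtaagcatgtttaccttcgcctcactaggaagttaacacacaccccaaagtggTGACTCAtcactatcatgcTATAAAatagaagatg
Mmp12: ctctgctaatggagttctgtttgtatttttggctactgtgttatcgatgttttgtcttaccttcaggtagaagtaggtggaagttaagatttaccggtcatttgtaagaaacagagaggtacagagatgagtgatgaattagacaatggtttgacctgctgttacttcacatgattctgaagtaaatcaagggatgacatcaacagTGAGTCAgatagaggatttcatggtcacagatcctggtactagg
Timp1: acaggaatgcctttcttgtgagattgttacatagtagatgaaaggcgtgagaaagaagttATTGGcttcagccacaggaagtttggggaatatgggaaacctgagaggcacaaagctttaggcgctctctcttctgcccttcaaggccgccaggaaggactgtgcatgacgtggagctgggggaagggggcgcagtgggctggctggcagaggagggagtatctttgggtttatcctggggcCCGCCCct
Col3a1: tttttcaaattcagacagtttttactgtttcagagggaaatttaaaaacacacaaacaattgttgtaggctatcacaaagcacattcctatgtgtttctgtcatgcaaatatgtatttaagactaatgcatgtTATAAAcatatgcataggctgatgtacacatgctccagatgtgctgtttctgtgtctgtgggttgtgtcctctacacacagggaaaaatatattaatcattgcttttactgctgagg
Col27a1: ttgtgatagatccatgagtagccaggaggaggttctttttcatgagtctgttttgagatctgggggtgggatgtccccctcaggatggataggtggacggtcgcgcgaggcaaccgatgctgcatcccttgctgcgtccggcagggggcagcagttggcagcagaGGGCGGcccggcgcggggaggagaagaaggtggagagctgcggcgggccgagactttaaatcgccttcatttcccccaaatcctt
Col5a3: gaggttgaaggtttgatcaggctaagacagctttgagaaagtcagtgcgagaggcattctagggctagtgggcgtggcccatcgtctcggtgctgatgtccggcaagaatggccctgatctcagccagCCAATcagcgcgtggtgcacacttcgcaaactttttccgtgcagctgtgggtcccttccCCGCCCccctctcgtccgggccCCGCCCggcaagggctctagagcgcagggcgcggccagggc
The AP-1 letters occurred in 3 of the 53 windows of these genes, those of *Mmp12*, *Mmp13* and *Col6a1*, starting 44 bases before the start in *Mmp12* and 35 bases before it in *Mmp13*, where a TATA box followed at 16. The antioxidant response element letters, bound by NRF2 with small Maf proteins in other genes, occurred in 7 windows and in none of the 6 shown. Such matches describe the letters in a window and say nothing of binding.

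The fibrillar collagens, the rope-like trimers that give tissue its tensile strength, split: of 8 tested, 4 rose and 3 fell in *Atg7*-KO. Changes of single genes are given on the log2 scale, with a minus sign where the first-named genotype was lower. *Col1a1*, the chain that collagen I uses in duplicate, had 4.01, 6.62 and 11.2 normalized CPM in cont., 108, 147 and 142 in the *Atg7*-KO and 16.2, 11.1 and 25.7 in *Atg7*-KO;*p62T352A* mice. All *Atg7*-KO mice stood far above the other 6, and the *Atg7*-KO;*p62T352A* mice overlapped the cont. mice only at their lowest value. The log2 fold change against cont. was 4.20 (SE 0.43, adjusted p = 9.91e-05) in *Atg7*-KO (SE is the standard error), an 18.4-fold rise, and that of *Atg7*-KO;*p62T352A* against *Atg7*-KO was -2.90 (SE 0.40, adjusted p = 0.000377). Against cont. it was 1.30 in *Atg7*-KO;*p62T352A* mice and missed the threshold (adjusted p = 0.0611), but it passed without cont. mouse 3 (1.75, adjusted p = 0.0251), in DESeq2 (1.25) and with the mouse number as a block (1.33).

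Its partner chain *Col1a2* had 11.4, 13.5 and 19.5 CPM in cont., 121, 164 and 141 in the *Atg7*-KO and 41.5, 30.1 and 77.9 in *Atg7*-KO;*p62T352A* mice. Here the 3 genotypes did not overlap, with the *Atg7*-KO;*p62T352A* mice between the others. The log2 fold changes were 3.27 (SE 0.37, adjusted p = 0.000168) for *Atg7*-KO against cont., -1.51 (adjusted p = 0.00500) in *Atg7*-KO;*p62T352A* against *Atg7*-KO and 1.76 (adjusted p = 0.0157) in *Atg7*-KO;*p62T352A* against cont. mice, the last of which was not called without cont. mouse 2 (1.64, adjusted p = 0.0550). *Col3a1*, the homotrimer that forms fine reticular fibres with collagen I, had 24.8, 20.9 and 25.8 CPM in cont., 284, 407 and 344 in the *Atg7*-KO and 54.8, 32.9 and 87.3 in *Atg7*-KO;*p62T352A* mice, again in 3 ranges without overlap. It rose by 3.85 (SE 0.35, adjusted p = 5.69e-05) in *Atg7*-KO and was lower in *Atg7*-KO;*p62T352A* than in *Atg7*-KO mice, at -2.56 (adjusted p = 0.000283). The 1.29 of *Atg7*-KO;*p62T352A* against cont. mice (adjusted p = 0.0315) was called in only 2 of the 9 fits that left 1 mouse out, those without cont. mouse 1 and without *Atg7*-KO;*p62T352A* mouse 2, and ranged from 0.88 to 1.57 over all 9. Together the 3 genes summed to 40.2, 41.0 and 56.5 CPM in cont., 513, 718 and 627 in the *Atg7*-KO and 112, 74.1 and 191 in *Atg7*-KO;*p62T352A* mice.

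Collagen V nucleates collagen I fibrils, and its chains parted. *Col5a2*, which lies 24614 bases from *Col3a1* on chromosome 1, rose in *Atg7*-KO by 2.12 (SE 0.42, adjusted p = 0.00312) and was lower again in *Atg7*-KO;*p62T352A* mice, at -2.27. The *Col5a1* log2 fold change of 0.69 in *Atg7*-KO was not called (adjusted p = 0.141), while its -0.94 in *Atg7*-KO;*p62T352A* against *Atg7*-KO mice was (adjusted p = 0.0476). Of the 9 fits that left 1 mouse out, only the 4 without a cont. mouse or without *Atg7*-KO;*p62T352A* mouse 3 kept that call. *Col5a3* ran the other way, with 46.0, 92.1 and 121 CPM in cont., 19.2, 19.5 and 20.5 in the *Atg7*-KO and 313, 65.1 and 102 in *Atg7*-KO;*p62T352A* mice. Its *Atg7*-KO values were nearly identical and lay below all other mice, and *Atg7*-KO;*p62T352A* mouse 1 stood far above the rest. It fell by 2.12 (SE 0.55, adjusted p = 0.0113) in *Atg7*-KO and was higher in *Atg7*-KO;*p62T352A* than in *Atg7*-KO mice by 3.02 (SE 0.57, adjusted p = 0.00194). Without *Atg7*-KO;*p62T352A* mouse 1, the latter was 2.09 and the log2 fold change of *Atg7*-KO;*p62T352A* against cont. went from 0.89 to -0.042.

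Among the minor fibrillar chains, *Col27a1* of cartilage collagen XXVII had 43.7, 82.1 and 70.2 CPM in cont., 9.77, 10.8 and 10.4 in the *Atg7*-KO and 110.4, 27.2 and 56.7 in *Atg7*-KO;*p62T352A* mice, and *Atg7*-KO;*p62T352A* mouse 1 was again the highest. The *Atg7*-KO mice lay below the others without overlap, with a log2 fold change of -2.66 (SE 0.45, adjusted p = 0.00142), and the *Atg7*-KO;*p62T352A* mice were higher than *Atg7*-KO by 2.65 (SE 0.45, adjusted p = 0.00115; 2.02 without *Atg7*-KO;*p62T352A* mouse 1) and overlapped the cont. mice. *Col11a2*, a chain of cartilage collagen XI, had only 0.688, 5.11 and 5.82 CPM in cont., 0.484, 0.986 and 0.725 in the *Atg7*-KO and 2.57, 2.24 and 1.57 in *Atg7*-KO;*p62T352A* mice. Cont. mouse 1 lay within the *Atg7*-KO range. Its fall in *Atg7*-KO of -2.34 (SE 0.66, adjusted p = 0.0166) was lost without *Atg7*-KO mouse 1, *Atg7*-KO mouse 3 or cont. mouse 3, with values from -2.87 to -1.91 over the 9 fits, and its 1.52 in *Atg7*-KO;*p62T352A* against *Atg7*-KO (adjusted p = 0.0771) was called without cont. mouse 1 (1.51), without the mice numbered 1 (1.14) and in DESeq2.

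**Figure D3:**
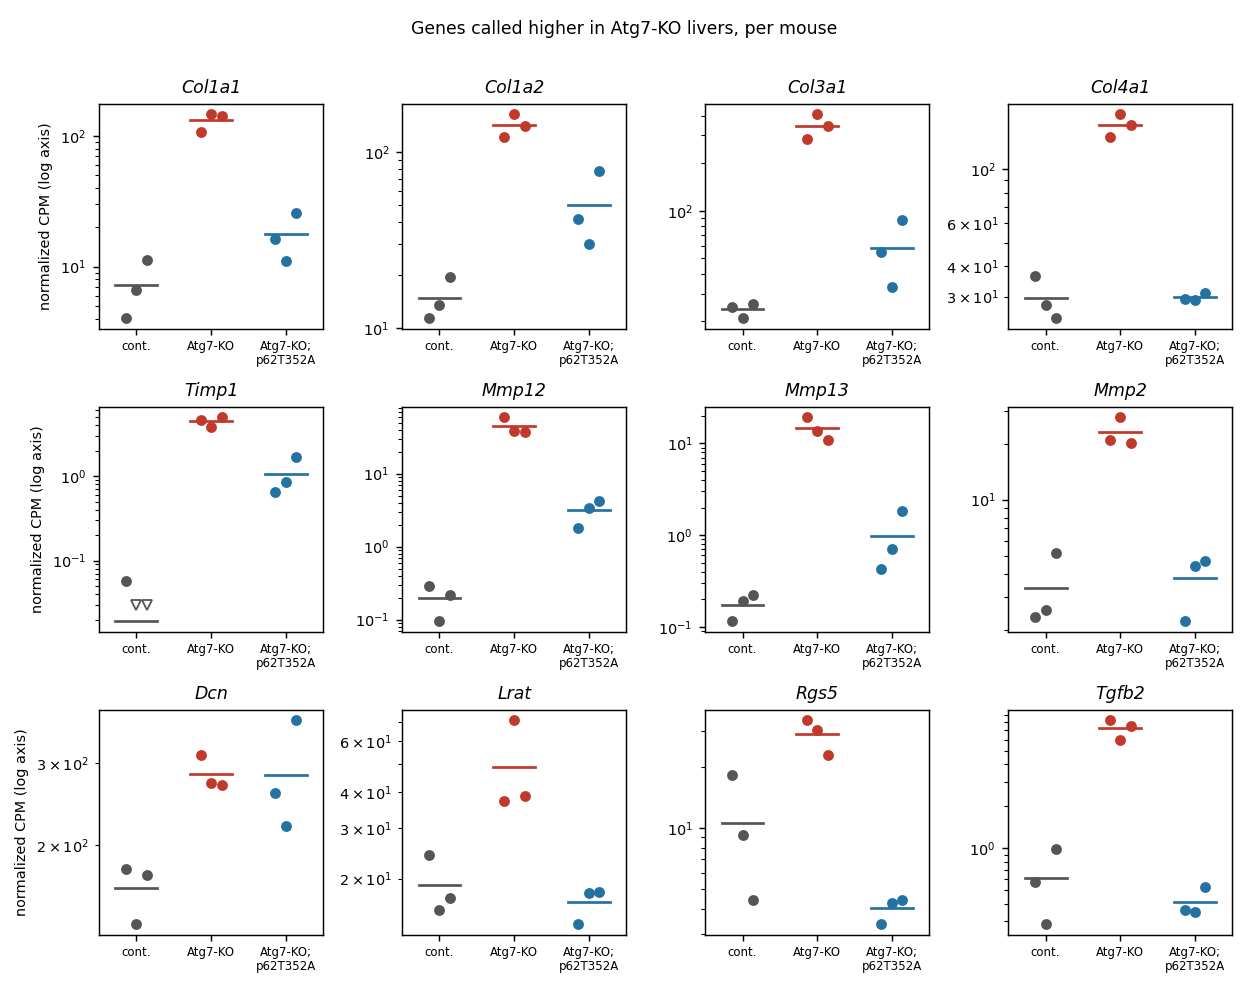
Normalized CPM (log axes) of 12 genes that were called higher in Atg7-KO, 1 panel per gene, with 1 point per mouse and a line at the mean of each genotype (n = 3); open triangles, placed at 0.03, are mice with no count. In every panel the 3 Atg7-KO points lie above the 3 cont. points, and for Dcn the Atg7-KO;p62T352A points overlap the Atg7-KO points.

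The balance between partner chains was described by the ratio of their levels, set against each other per kilobase of exon (RPKM of the normalized counts, union of all annotated exons). The ratio of *Col1a1* to *Col1a2* on this scale was 0.666, 0.927 and 1.09 in cont., 1.68, 1.70 and 1.90 in the *Atg7*-KO and 0.740, 0.702 and 0.623 in *Atg7*-KO;*p62T352A* mice. The *Atg7*-KO ratios lay above all others, by 1.01 on the log2 scale against cont., and the log2 difference of *Atg7*-KO;*p62T352A* from *Atg7*-KO mice was -1.36. For *Col4a1* to *Col4a2* the ratios were 1.45, 0.902 and 0.911 in cont., 1.70, 1.83 and 1.87 in the *Atg7*-KO and 0.896, 1.29 and 1.13 in *Atg7*-KO;*p62T352A* mice, a log2 difference of 0.76 from cont. to *Atg7*-KO and of -0.72 from *Atg7*-KO to *Atg7*-KO;*p62T352A* mice. The ratio of *Col6a1* to *Col6a2* went the other way, with 4.69, 4.80 and 5.31 in cont., 2.63, 2.58 and 2.83 in the *Atg7*-KO and 5.03, 2.83 and 3.78 in *Atg7*-KO;*p62T352A* mice, a log2 difference of -0.88 in *Atg7*-KO. Two-sided exact permutation tests gave p = 0.1 for each of the 3 ratios in both contrasts with *Atg7*-KO, the smallest p that 3 mice against 3 allow, and the 3 contrasts of *Atg7*-KO;*p62T352A* with cont. gave p = 0.3, 1.0 and 0.3, so none of the 9 comparisons could or did pass 0.05. The absolute ratios depend on the exon length used, and the differences do not.

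The make-up of the collagen mRNA pool differed between the genotypes. The 44 collagens summed to 1183, 1699 and 1491 CPM in cont., 1427, 1762 and 1607 in the *Atg7*-KO and 1550.5, 1179 and 1300.3 in *Atg7*-KO;*p62T352A* mice, in ranges that overlapped. Since a longer transcript gives more counts, shares of this sum are shares of counts and are compared between genotypes, not between genes. *Col18a1* supplied 76.9%, 75.5% and 68.8% of this in cont., 26.5%, 23.0% and 24.6% in the *Atg7*-KO and 53.7%, 73.3% and 57.5% in *Atg7*-KO;*p62T352A* mice. The share of *Col3a1* went from 2.10%, 1.23% and 1.73% in cont. to 19.9%, 23.1% and 21.4% in *Atg7*-KO and was 3.53%, 2.79% and 6.72% in *Atg7*-KO;*p62T352A* mice. Without *Col18a1* the other 43 collagens summed to 273, 417 and 465 CPM in cont., 1049.6, 1356 and 1212 in the *Atg7*-KO and 718, 315 and 552 in *Atg7*-KO;*p62T352A* mice, so that the *Atg7*-KO mice stood above all others.

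**Figure D4:**
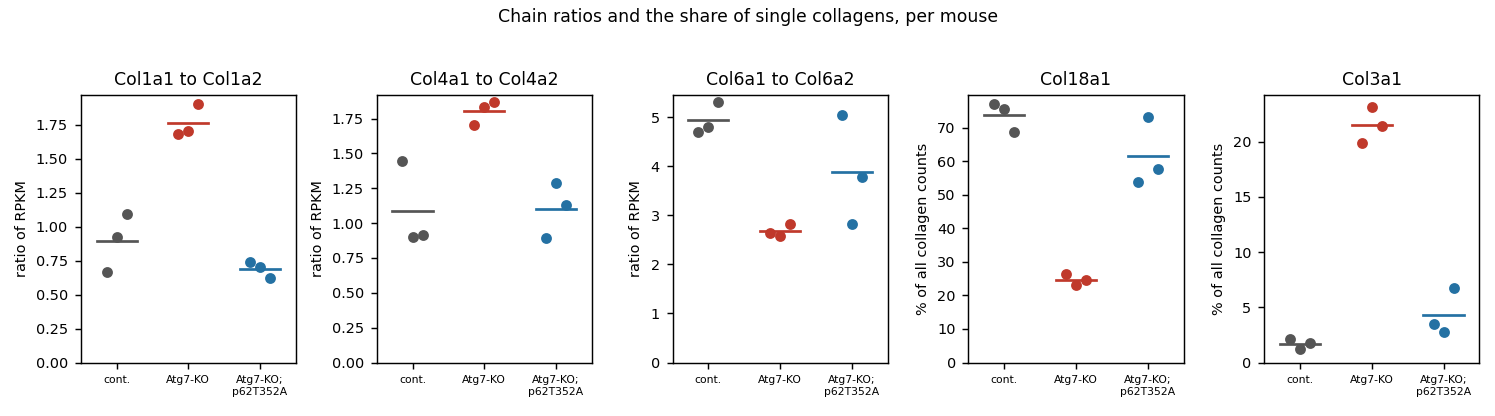
Ratios of the length-scaled levels (RPKM) of partner chains and the percentage of all collagen counts taken by Col18a1 and Col3a1, with 1 point per mouse and a line at the mean of each genotype (n = 3). The Atg7-KO points are set apart from cont. in every panel: the Col1a1 to Col1a2 ratio is 1.68 to 1.90 against 0.666 to 1.09, and the Col18a1 share is 23.0% to 26.5% against 68.8% to 76.9%.

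The falling collagens included the one with the most counts, unscaled by length. *Col18a1*, a basement membrane proteoglycan whose C-terminal fragment is endostatin, had 910.3, 1282 and 1026 CPM in cont., 378, 406 and 395 in the *Atg7*-KO and 833, 864 and 748 in *Atg7*-KO;*p62T352A* mice. The 3 genotypes did not overlap, with *Atg7*-KO;*p62T352A* mice between the others. In *Atg7*-KO it fell by 1.45 (SE 0.19, adjusted p = 0.000375) and was higher in *Atg7*-KO;*p62T352A* than in *Atg7*-KO mice by 1.05 (SE 0.19, adjusted p = 0.00156). *Col13a1*, a transmembrane collagen of cell adhesion sites, had 6.42, 12.8 and 9.78 CPM in cont., 3.34, 3.12 and 3.03 in the *Atg7*-KO and 3.71, 5.39 and 3.66 in *Atg7*-KO;*p62T352A* mice. Both *Atg7*-deficient genotypes lay below cont. without overlap. It was the 1 gene called lower in *Atg7*-KO;*p62T352A* than in cont. mice (-1.17, SE 0.28, adjusted p = 0.0288), a call that 6 of the 9 fits with 1 mouse left out lost (-1.41 to -0.98; kept without cont. mouse 1 or 3 or *Atg7*-KO;*p62T352A* mouse 2), and its fall in *Atg7*-KO was -1.60 (SE 0.28, adjusted p = 0.00175).

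Collagens with few counts fell as well, and in these cont. mouse 1 was low. *Col20a1*, a fibril-associated collagen, had 1.15, 17.4 and 13.4 CPM in cont., 0.435, 0.740 and 0.555 in the *Atg7*-KO and 6.93, 3.78 and 4.11 in *Atg7*-KO;*p62T352A* mice. The lowest cont. value still lay above the *Atg7*-KO mice. Its log2 fold change was -4.16 (SE 0.83, adjusted p = 0.00323) in *Atg7*-KO and 3.07 (SE 0.82, adjusted p = 0.0108) in *Atg7*-KO;*p62T352A* against *Atg7*-KO mice, and the -1.09 in *Atg7*-KO;*p62T352A* against cont. was called without cont. mouse 1 (-1.64, adjusted p = 0.00418) and without the mice numbered 1 (-1.96). *Col7a1*, the anchoring fibril collagen of epithelial basement membranes, had 0.229, 3.21 and 2.53 CPM in cont., 0.242, 0.123 and 0.171 in the *Atg7*-KO and 1.21, 1.12 and 1.31 in *Atg7*-KO;*p62T352A* mice. Cont. mouse 1 lay just below *Atg7*-KO mouse 1, whereas all *Atg7*-KO;*p62T352A* mice lay above all *Atg7*-KO mice. The log2 fold changes were -3.38 (SE 0.81, adjusted p = 0.00776), or -3.98 without cont. mouse 1, and, for *Atg7*-KO;*p62T352A* against *Atg7*-KO, 2.73 (SE 0.81, adjusted p = 0.0179), the latter lost without *Atg7*-KO mouse 2 or 3 (2.52 and 2.70).

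**Figure D5:**
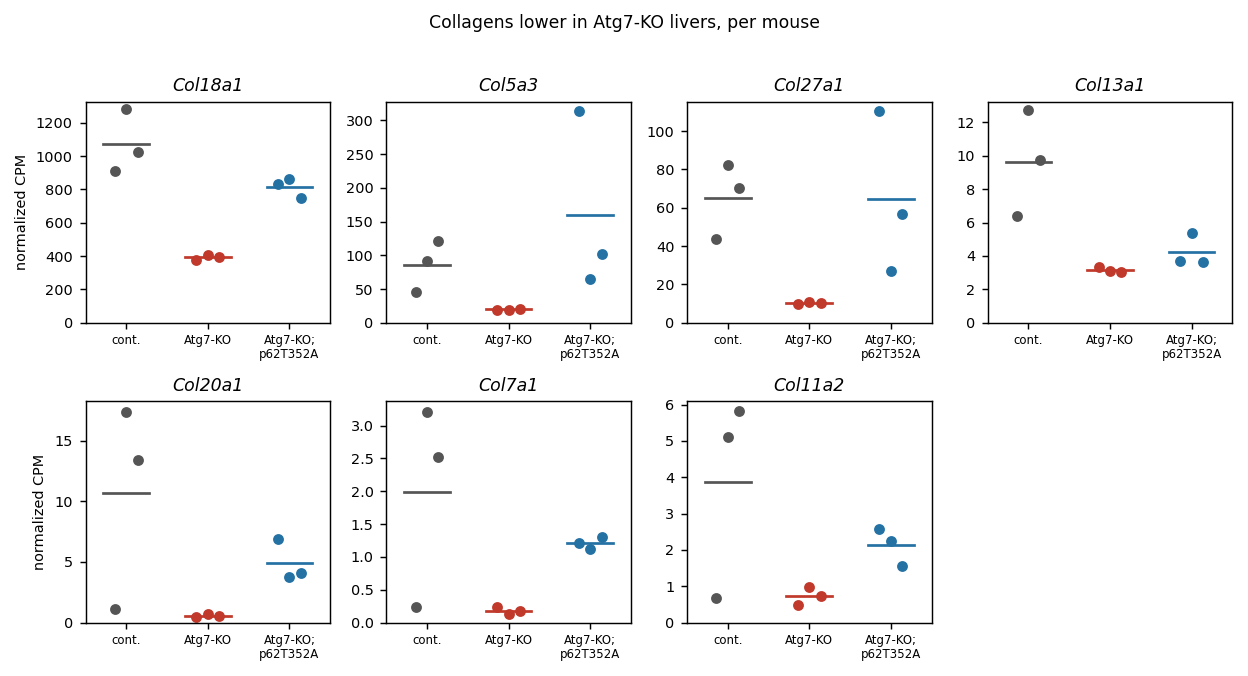
Normalized CPM (linear axes from 0) of the 7 collagens called lower in Atg7-KO, with 1 point per mouse and a line at the mean of each genotype (n = 3). The Atg7-KO points lie close together below the cont. mean in each panel. The first cont. point is low for Col20a1, Col7a1 and Col11a2 and lies within the Atg7-KO range for Col7a1 and Col11a2. The first Atg7-KO;p62T352A point is the highest for Col5a3 and Col27a1.

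Most network and basement membrane collagens rose: of 7 tested, 5 were called higher in *Atg7*-KO, and 6 were called lower in *Atg7*-KO;*p62T352A* than in *Atg7*-KO mice. The main pair, *Col4a1* and *Col4a2*, is transcribed from opposite strands of chromosome 8, and their gene models (11198423 to 11312826 on the minus strand and 11312805 to 11449287 on the plus strand) overlap head to head by 22 bases. *Col4a1* had 36.3, 27.8 and 24.4 CPM in cont., 136, 168 and 152 in the *Atg7*-KO and 29.3, 29.1 and 31.0 in *Atg7*-KO;*p62T352A* mice, and *Col4a2* had 22.2, 27.3 and 23.7 in cont., 70.8, 81.4 and 72.1 in the *Atg7*-KO and 29.0, 20.1 and 24.3 in *Atg7*-KO;*p62T352A* mice. For both, the *Atg7*-KO mice stood alone and the *Atg7*-KO;*p62T352A* and cont. mice overlapped. The log2 fold changes in *Atg7*-KO were 2.36 (SE 0.19, adjusted p = 3.28e-05) for *Col4a1* and 1.61 (SE 0.18, adjusted p = 0.000163) for *Col4a2*, and those in *Atg7*-KO;*p62T352A* against *Atg7*-KO were -2.35 (adjusted p = 3.81e-05) and -1.61 (adjusted p = 0.000148).

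The chains of specialized basement membranes also form head-to-head pairs, *Col4a5* with *Col4a6* (1308 bases apart on chromosome X) and *Col4a3* with *Col4a4* (71 bases apart on chromosome 1). *Col4a5* rose by 2.72 (SE 0.38, adjusted p = 0.000487) in *Atg7*-KO and *Col4a6* by 2.11 (SE 0.64, adjusted p = 0.0225), and both were called lower in *Atg7*-KO;*p62T352A* than in *Atg7*-KO mice (*Col4a6* at -2.58, or -3.20 without *Atg7*-KO;*p62T352A* mouse 2). The *Col4a6* rise was lost in 4 of 9 fits with 1 mouse left out, namely without *Atg7*-KO mouse 2 or 3 or cont. mouse 1 or 2 (1.67 to 3.14 over the 9 fits). In the other pair, *Col4a4* was at 1.64 in *Atg7*-KO (adjusted p = 0.0535) and was called without cont. mouse 3 (2.89), with the mouse number as a block (1.75) and under upper-quartile scaling (1.75), and *Col4a3*, of whose 75-base stretches 4.15% occur in another gene, was at 0.82 (adjusted p = 0.293). *Col8a1*, of the short-chain collagen VIII of vessels, rose by 2.06 (SE 0.57, adjusted p = 0.0152), a call lost without cont. mouse 2 (1.68, adjusted p = 0.0672), while the rise was 3.49 without cont. mouse 1, and 5 of the 9 fits lost its -1.68 in *Atg7*-KO;*p62T352A* against *Atg7*-KO mice (-2.04 to -1.41), those without any 1 *Atg7*-KO mouse or without *Atg7*-KO;*p62T352A* mouse 1 or 2.

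Collagen VI, which forms beaded microfibrils around cells, rose in all 4 chains that passed the filter, of which *Col6a5* had 2 to 4 counts in each cont. mouse. *Col6a3* had 15.4 ± 7.99 CPM (mean ± SD, n = 3) in cont., 73.8 ± 7.11 in the *Atg7*-KO and 18.8 ± 7.30 in *Atg7*-KO;*p62T352A* mice, a rise of 2.27 (SE 0.43, adjusted p = 0.00237) and a difference of -1.97 between *Atg7*-KO;*p62T352A* and *Atg7*-KO. *Col6a2* and *Col6a5* rose by 1.93 and 2.77 (adjusted p = 0.00236 and 0.00142), and *Col6a5* was at -2.55 in *Atg7*-KO;*p62T352A* against *Atg7*-KO mice, or -3.34 without *Atg7*-KO;*p62T352A* mouse 3. *Col6a1*, whose promoter window holds the AP-1 letters, rose by 1.00 (SE 0.37, adjusted p = 0.0480), and only the fits without cont. mouse 1 or cont. mouse 3 still called it (0.64 to 1.45 over the 9 fits that left 1 mouse out). Its -1.33 in *Atg7*-KO;*p62T352A* against *Atg7*-KO mice was called (adjusted p = 0.0132), but not without *Atg7*-KO;*p62T352A* mouse 2 (-1.18).

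Of 5 tested collagens that sit on the surface of fibrils, 1 rose (*Col14a1*) and 1 fell (*Col20a1*) in *Atg7*-KO. Of all tested genes 21.6% rose and 22.1% fell, so these counts were near the background. *Col14a1*, which binds decorin and limits fibril growth, had 27.7 ± 6.15 CPM in cont., 78.1 ± 3.64 in the *Atg7*-KO and 32.0 ± 4.05 in *Atg7*-KO;*p62T352A* mice, and it was called higher in *Atg7*-KO (1.49, SE 0.19, adjusted p = 0.000313) and lower in *Atg7*-KO;*p62T352A* than in *Atg7*-KO mice (-1.29). For *Col12a1* the 0.91 in *Atg7*-KO was not called (adjusted p = 0.0657; called without cont. mouse 3, 1.37, in DESeq2, under upper-quartile scaling and with the stricter filter) and the -1.33 in *Atg7*-KO;*p62T352A* against *Atg7*-KO was (adjusted p = 0.0128; -1.14 and not called without *Atg7*-KO;*p62T352A* mouse 3). *Col16a1* and *Col9a3* were at 0.86 and 0.66 in *Atg7*-KO and were not called, except *Col16a1* without cont. mouse 3 (1.48, adjusted p = 0.0252). *Col16a1* was also called lower in *Atg7*-KO;*p62T352A* than in *Atg7*-KO mice without cont. mouse 1 (-1.02) and without the mice numbered 1 (-1.01). *Col15a1*, a basement membrane relative of *Col18a1*, moved opposite to it: 7.54 ± 2.39 CPM in cont., 36.7 ± 3.73 in the *Atg7*-KO and 8.65 ± 3.96 in *Atg7*-KO;*p62T352A* mice, a rise of 2.29 (SE 0.33, adjusted p = 0.000572) and a difference of -2.09 in *Atg7*-KO;*p62T352A* against *Atg7*-KO. The transmembrane collagen *Col23a1* stayed under 1.3 CPM in every mouse and was not called.

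Matrix glycoproteins and small leucine-rich proteoglycans, which organize fibrils and bind growth factors, rose in 4 of 5 genes. Lumican (*Lum*) rose most, from 7.55 ± 3.74 CPM in cont. to 58.4 ± 5.49 in *Atg7*-KO mice (2.93, SE 0.37, adjusted p = 0.000298), and was 8.30 ± 3.15 in *Atg7*-KO;*p62T352A* mice (-2.81 against *Atg7*-KO). Biglycan (*Bgn*) went from 85.5 ± 14.8 to 385 ± 54.3 CPM (2.17, SE 0.27, adjusted p = 0.000269) and was 80.7 ± 25.1 in *Atg7*-KO;*p62T352A* mice. *Sparc*, a collagen-binding glycoprotein, went from 65.4 ± 3.76 to 297 ± 39.7 CPM (2.19, SE 0.19, adjusted p = 4.90e-05) and stayed at 95.7 ± 16.5 in *Atg7*-KO;*p62T352A* mice, above all cont. mice, with a log2 fold change of 0.55 that was not called (adjusted p = 0.0839) except without cont. mouse 1 (0.59, adjusted p = 0.0415).

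Of the 37 genes that rose in *Atg7*-KO, decorin was the 1 not called lower in *Atg7*-KO;*p62T352A* than in *Atg7*-KO mice. *Dcn* had 178, 135 and 173 CPM in cont., 313, 272 and 269.7 in the *Atg7*-KO and 259, 220.1 and 371 in *Atg7*-KO;*p62T352A* mice. All 6 *Atg7*-deficient mice lay above all cont. mice, and the 2 *Atg7*-deficient genotypes overlapped. The log2 fold change was 0.81 (SE 0.23, adjusted p = 0.0156) in *Atg7*-KO and 0.80 (SE 0.23, adjusted p = 0.0472) in *Atg7*-KO;*p62T352A* mice, both against cont., and -0.0069 between them (SE 0.22, adjusted p = 0.981), a difference whose sign changed with the mice included. The call in *Atg7*-KO was lost without *Atg7*-KO mouse 1 (0.74) or cont. mouse 2 (0.62), and that in *Atg7*-KO;*p62T352A* mice was kept in 2 of the 9 fits, those without cont. mouse 1 and without *Atg7*-KO;*p62T352A* mouse 2 (0.56 to 0.96 over the 9).

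Fibronectin (*Fn1*), which hepatocytes secrete into plasma and mesenchymal cells deposit in matrix, had 1248, 768 and 678 CPM in cont., 775, 862 and 772 in the *Atg7*-KO and 499, 792 and 631 in *Atg7*-KO;*p62T352A* mice. All 3 genotypes overlapped, and it was not called in any contrast, with log2 fold changes of -0.16 (SE 0.27, adjusted p = 0.642) in *Atg7*-KO and -0.49 (adjusted p = 0.269) in *Atg7*-KO;*p62T352A* against cont. mice. Per kilobase of exon, *Col18a1* led in cont. mice with 153 ± 27.1 RPKM (mean ± SD, n = 3), followed by *Fn1* with 76.9 ± 26.2, *Dcn* with 27.8 ± 4.01 and *Sparc* with 17.3 ± 0.992. In *Atg7*-KO mice the first 4 were set apart from their neighbours by less than the sum of their SDs: *Sparc* with 78.5 ± 10.5, *Fn1* with 68.7 ± 4.37, *Bgn* with 63.1 ± 8.91 and *Col18a1* with 56.0 ± 2.03 RPKM, followed, by gaps larger than that, by *Dcn* with 48.8 ± 4.17 and *Col3a1* with 35.1 ± 6.28. With the longest transcript as length, *Bgn* came first there and stood ahead of *Sparc* in cont. mice. In *Atg7*-KO;*p62T352A* mice the first 4 were those of cont. in the same order when scaled to all exons (with the longest transcript *Bgn* took the place of *Sparc* in cont. mice), with *Col18a1* at 116 ± 8.53, *Fn1* at 54.8 ± 12.6, *Dcn* at 48.5 ± 13.4 and *Sparc* at 25.3 ± 4.36 RPKM, although *Fn1* and *Dcn* did not differ beyond their spread.

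Lysyl oxidases, the copper enzymes that cross-link collagen and elastin, all rose. *Lox* had 0.573, 0.189 and 0.330 CPM in cont., 5.13, 7.40 and 5.76 in the *Atg7*-KO and 0.428, 0.630 and 1.76 in *Atg7*-KO;*p62T352A* mice. Its *Atg7*-KO values lay above every other mouse, and among the *Atg7*-KO;*p62T352A* mice only mouse 1 lay within the cont. range. It rose by 3.94 (SE 0.55, adjusted p = 0.000479), or 4.54 without cont. mouse 1, and was lower in *Atg7*-KO;*p62T352A* than in *Atg7*-KO mice, at -2.67 (SE 0.48, adjusted p = 0.00146), or -3.50 without *Atg7*-KO;*p62T352A* mouse 3. Its 1.27 against cont. was not called (adjusted p = 0.197; 0.44 without *Atg7*-KO;*p62T352A* mouse 3 and 1.88 without cont. mouse 1). *Loxl1*, needed for elastic fibres, had 1.95, 0.851 and 1.98 CPM in cont., 9.43, 11.8 and 11.3 in the *Atg7*-KO and 3.21, 3.15 and 6.00 in *Atg7*-KO;*p62T352A* mice, in 3 ranges without overlap. It rose by 2.75 (SE 0.37, adjusted p = 0.000376) in *Atg7*-KO, and of its 1.36 in *Atg7*-KO;*p62T352A* against cont. mice (adjusted p = 0.0416) only the fit without cont. mouse 1 kept the call (0.98 to 1.57 over the 9 fits). *Loxl2* rose by 2.75 (SE 0.26, adjusted p = 6.60e-05), but 43.6% of its 75-base stretches also occur in other gene models, which could draw or lend reads.

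The largest rises among the 53 genes were those of *Mmp12*, *Timp1* and *Mmp13*, and all 6 metalloproteinase and inhibitor genes rose in *Atg7*-KO and were lower in *Atg7*-KO;*p62T352A* than in *Atg7*-KO mice. *Mmp12*, the macrophage elastase, had 0.287, 0.0946 and 0.220 CPM in cont., 59.1, 38.3 and 37.5 in the *Atg7*-KO and 1.79, 3.36 and 4.24 in *Atg7*-KO;*p62T352A* mice. The 3 ranges did not overlap, with the *Atg7*-KO;*p62T352A* mice in between. The log2 fold changes were 7.67 (SE 0.47, adjusted p = 1.28e-05) in *Atg7*-KO, -3.84 (SE 0.34, adjusted p = 5.98e-05) in *Atg7*-KO;*p62T352A* against *Atg7*-KO and 3.84 (SE 0.49, adjusted p = 0.00494) in *Atg7*-KO;*p62T352A* against cont. mice. *Mmp13*, the collagenase that cuts fibrillar collagens in rodents and neighbours *Mmp12* at 61049 bases on chromosome 9, had 0.115, 0.189 and 0.220 CPM in cont. (6 counts in all), 19.2, 13.8 and 10.8 in the *Atg7*-KO and 0.428, 0.700 and 1.83 in *Atg7*-KO;*p62T352A* mice. The genotypes did not overlap, and the *Atg7*-KO;*p62T352A* mice lay nearer to cont. than to *Atg7*-KO. Its rise in *Atg7*-KO was 6.42 (SE 0.59, adjusted p = 6.09e-05), an 89.2-fold ratio of summed counts scaled by library size with a 95% counting interval of 40.8 to 244, and *Atg7*-KO;*p62T352A* mice were lower than *Atg7*-KO, at -3.86 (SE 0.46, adjusted p = 0.000198), or -4.67 without *Atg7*-KO;*p62T352A* mouse 3. Its 2.55 in *Atg7*-KO;*p62T352A* against cont. mice (adjusted p = 0.0397) was kept in 1 of the 9 fits that left 1 mouse out, that without *Atg7*-KO;*p62T352A* mouse 1 (1.74 without *Atg7*-KO;*p62T352A* mouse 3 to 2.90 over the 9).

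*Timp1*, the secreted metalloproteinase inhibitor that marks activated stellate cells, had a single count among the cont. mice. In CPM it was at 0.0573, 0 and 0 in cont., 4.55, 3.78 and 4.95 in the *Atg7*-KO and 0.643, 0.841 and 1.70 in *Atg7*-KO;*p62T352A* mice. Again the ranges did not overlap. The ratio of summed counts scaled by library size was 164 in *Atg7*-KO (95% counting interval 29.2 to 6491) and 40.0 in *Atg7*-KO;*p62T352A* mice (6.84 to 1614), both against cont., and edgeR's adjusted p were 7.11e-05 and 0.00811. *Timp1* and *Mmp12* were the 2 genes whose call between *Atg7*-KO;*p62T352A* and cont. mice held in all 9 fits that left 1 mouse out. These intervals cover counting error only. Without cont. mouse 1, which held the count of *Timp1*, cont. had none, and the fold rests on that mouse.

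The other 3 genes of the class code for enzymes and an inhibitor that work together. *Mmp2*, the gelatinase A of stellate cells and fibroblasts, had 2.35, 2.55 and 5.17 CPM in cont., 21.0, 27.7 and 20.2 in the *Atg7*-KO and 2.21, 4.41 and 4.70 in *Atg7*-KO;*p62T352A* mice, with log2 fold changes of 2.80 (SE 0.37, adjusted p = 0.000360) and, in *Atg7*-KO;*p62T352A* against *Atg7*-KO, -2.60 (SE 0.36, adjusted p = 0.000385). *Mmp14*, the membrane-bound activator of MMP2, had 25.4, 26.5 and 18.9 CPM in cont., 48.8, 59.8 and 59.3 in the *Atg7*-KO and 22.0, 42.0 and 38.6 in *Atg7*-KO;*p62T352A* mice, a rise of 1.25 (SE 0.25, adjusted p = 0.00360). Both were high in all *Atg7*-KO mice and overlapped between *Atg7*-KO;*p62T352A* and cont. mice. The -0.71 of *Mmp14* in *Atg7*-KO;*p62T352A* against *Atg7*-KO (adjusted p = 0.0362) was kept in 3 of the 9 fits (-0.88 to -0.47), those without cont. mouse 1 or 3 or *Atg7*-KO;*p62T352A* mouse 2. *Timp2*, which takes part in that activation, had 13.6, 9.64 and 15.8 CPM in cont., 57.2, 59.3 and 57.5 in the *Atg7*-KO and 11.0, 16.1 and 18.8 in *Atg7*-KO;*p62T352A* mice. The *Atg7*-KO values were tightly grouped and far above those of the other mice. It rose by 2.15 (SE 0.24, adjusted p = 0.000168) and was lower in *Atg7*-KO;*p62T352A* than in *Atg7*-KO mice, at -1.92 (adjusted p = 0.000251).

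Of 7 markers of stellate and contractile cells, 6 rose in *Atg7*-KO and the same 6 were lower in *Atg7*-KO;*p62T352A* than in *Atg7*-KO mice. *Acta2*, the alpha smooth muscle actin of myofibroblasts, had 4.30, 4.92 and 5.17 CPM in cont., 8.66, 8.83 and 10.1 in the *Atg7*-KO and 2.43, 7.43 and 4.50 in *Atg7*-KO;*p62T352A* mice. The *Atg7*-KO mice lay above all others, and *Atg7*-KO;*p62T352A* mouse 2 came closest to them. Its log2 fold changes of 0.94 (SE 0.34, adjusted p = 0.0440) in *Atg7*-KO and -0.94 (SE 0.33, adjusted p = 0.0375) in *Atg7*-KO;*p62T352A* against *Atg7*-KO stood close to the threshold: of the 9 fits that left 1 mouse out, the first was kept in those without *Atg7*-KO;*p62T352A* mouse 1 or 2 (adjusted p up to 0.121 elsewhere) and the second in those without cont. mouse 1 or 3 or *Atg7*-KO;*p62T352A* mouse 2 (up to 0.104). *Tagln*, a smooth muscle actin-binding protein, behaved alike in size (0.92, adjusted p = 0.0402, kept in the fits without cont. mouse 3 or *Atg7*-KO;*p62T352A* mouse 1), but 53.3% of its 75-base stretches occur in overlapping gene models, *Pcsk7* among them. Desmin (*Des*), the intermediate filament of stellate cells in rodents, had 3.09, 5.11 and 4.18 CPM in cont., 5.80, 5.42 and 5.93 in the *Atg7*-KO and 5.43, 6.93 and 7.70 in *Atg7*-KO;*p62T352A* mice. The lowest *Atg7*-KO and *Atg7*-KO;*p62T352A* values lay above the highest cont. value, but it was not called in any contrast (log2 fold changes 0.48, 0.23 and 0.71, the last with adjusted p = 0.0870).

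The other 4 markers were higher in all *Atg7*-KO mice than in any other mouse. *Lrat*, which esterifies vitamin A in quiescent stellate cells, had 24.2, 15.6 and 17.1 CPM in cont., 37.1, 71.1 and 38.7 in the *Atg7*-KO and 13.9, 17.8 and 17.9 in *Atg7*-KO;*p62T352A* mice. *Atg7*-KO mouse 2 was by far the highest. *Lrat* rose by 1.36 (SE 0.29, adjusted p = 0.00421) and was lower in *Atg7*-KO;*p62T352A* than in *Atg7*-KO mice, at -1.57 (SE 0.29, adjusted p = 0.00169). *Rgs5*, a regulator of G protein signalling in pericytes, had 18.2, 9.17 and 4.40 CPM in cont., 33.7, 30.4 and 22.7 in the *Atg7*-KO and 3.36, 4.27 and 4.44 in *Atg7*-KO;*p62T352A* mice, with a wide spread among cont. mice. It rose by 1.43 (SE 0.41, adjusted p = 0.0179), a call lost without cont. mouse 2 or *Atg7*-KO mouse 1 or 2 (1.06 to 2.08 over the 9 fits), and was lower in *Atg7*-KO;*p62T352A* than in *Atg7*-KO mice, at -2.84 (SE 0.44, adjusted p = 0.000663). Against cont. its -1.42 in *Atg7*-KO;*p62T352A* mice had an adjusted p of 0.0609 and was called without cont. mouse 3 (-1.78, adjusted p = 0.0126) and in DESeq2 (-1.48).

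*Pdgfrb*, the receptor for the PDGF-B that drives stellate cell proliferation, had 7.22, 12.7 and 15.5 CPM in cont., 28.1, 26.0 and 24.5 in the *Atg7*-KO and 9.14, 10.6 and 13.3 in *Atg7*-KO;*p62T352A* mice, and *Pdgfra*, of fibroblasts and stellate cells, had 5.27, 6.05 and 7.80 in cont., 16.5, 19.6 and 17.2 in the *Atg7*-KO and 5.28, 6.93 and 10.1 in *Atg7*-KO;*p62T352A* mice. Both receptors were high in all *Atg7*-KO mice, without overlap, and overlapped between *Atg7*-KO;*p62T352A* and cont. mice. They rose by 1.16 (SE 0.27, adjusted p = 0.00664) and 1.49 (SE 0.26, adjusted p = 0.00157) and were lower in *Atg7*-KO;*p62T352A* than in *Atg7*-KO mice, at -1.25 and -1.26 (adjusted p = 0.00373 and 0.00273). Of the 4 PDGF ligands, 3 rose in *Atg7*-KO, led by *Pdgfb* (2.84, SE 0.27, adjusted p = 7.00e-05) and followed by *Pdgfd* (2.81) and *Pdgfc* (2.35). All 3 were lower in *Atg7*-KO;*p62T352A* than in *Atg7*-KO mice, whereas *Pdgfa* was higher there (0.87, adjusted p = 0.0148). Against cont., *Pdgfa* and *Pdgfb* were called higher in *Atg7*-KO;*p62T352A* mice (1.39 and 1.14) and *Pdgfd* was called lower (-3.38). The call of *Pdgfa* against *Atg7*-KO was lost without *Atg7*-KO mouse 2 or 3 or *Atg7*-KO;*p62T352A* mouse 1. Against cont., of the 9 fits that left 1 mouse out, 7 called 1 ligand higher (all but those without cont. mouse 1 or *Atg7*-KO;*p62T352A* mouse 2) and 8 called none lower (all but that without cont. mouse 3).

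Further markers of the same cells did not move as 1 block. Of 11 tested markers of quiescent stellate cells, 3 rose in *Atg7*-KO (among them *Cygb* by 1.18 and *Hgf* by 1.04) and 5 fell, from *Hhip* (-3.16, adjusted p = 0.000804) to *Colec10* (-1.31, adjusted p = 0.00174) with *Angptl6*, *Vipr1* and *Ecm1* between them, and their summed level was 309 to 517 CPM in cont., 302 to 310.4 in the *Atg7*-KO and 342 to 497 in *Atg7*-KO;*p62T352A* mice. In *Atg7*-KO;*p62T352A* against *Atg7*-KO mice 4 of them (*Ecm1*, *Hhip*, *Angptl6* and *Vipr1*) were called higher and 2 lower (*Cygb* and *Hgf*). Against cont., *Colec10* and *Hgf* were called lower in *Atg7*-KO;*p62T352A* mice (-1.31 and -2.31). The count that rose in *Atg7*-KO was 2 in 6 of the 9 fits that left 1 mouse out. The count lower against *Atg7*-KO was 1 without any 1 *Atg7*-KO mouse or without *Atg7*-KO;*p62T352A* mouse 1 or 2, and the count lower against cont. was 1 without *Atg7*-KO;*p62T352A* mouse 3. Of 13 tested markers of activated and portal fibroblasts 10 rose in *Atg7*-KO, most of all *Fbln1* (2.83, SE 0.42, adjusted p = 0.000658), and 2 fell, *Gas1* (-2.64) and *Tpm2* (-2.20). These 2 were called higher in *Atg7*-KO;*p62T352A* than in *Atg7*-KO mice, where 7 of the list were called lower, and *Gas1* was still called lower than in cont. mice (-1.10). The count higher against *Atg7*-KO was 1 without any 1 *Atg7*-KO mouse or without *Atg7*-KO;*p62T352A* mouse 1 or 2. Against cont. the count lower was 0 without any 1 *Atg7*-KO or *Atg7*-KO;*p62T352A* mouse or without cont. mouse 3 and 3 without cont. mouse 1, and 2 were called higher without cont. mouse 3. The summed levels of the list were 68.4 to 105 CPM in cont., 179.7 to 203 in the *Atg7*-KO and 73.5 to 107 in *Atg7*-KO;*p62T352A* mice. *Cthrc1*, *Mfap5* and *Cnn1* were too low to be tested.

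The 3 TGF-beta ligands, which tie stellate cell activation to collagen synthesis, all rose in *Atg7*-KO and all were lower again in *Atg7*-KO;*p62T352A* mice. *Tgfb1*, the ligand best known from fibrosis, had 10.1, 7.75 and 8.79 CPM in cont., 23.6, 23.9 and 29.8 in the *Atg7*-KO and 4.57, 9.67 and 5.68 in *Atg7*-KO;*p62T352A* mice. *Tgfb2* had 0.573, 0.284 and 0.989 in cont., 8.27, 5.96 and 7.59 in the *Atg7*-KO and 0.357, 0.350 and 0.522 in *Atg7*-KO;*p62T352A* mice, and *Tgfb3*, of whose stretches 7.34% occur in other genes, had 0.974, 0.662 and 1.43 in cont., 5.13, 5.38 and 4.56 in the *Atg7*-KO and 0.785, 0.490 and 1.44 in *Atg7*-KO;*p62T352A* mice. For each ligand all *Atg7*-KO mice lay above the other 6, and *Atg7*-KO;*p62T352A* mice overlapped cont. mice. The rises were 1.53 (SE 0.27, adjusted p = 0.00168) for *Tgfb1*, 3.58 (SE 0.38, adjusted p = 0.000116) for *Tgfb2* and 2.31 (SE 0.39, adjusted p = 0.00139) for *Tgfb3*. *Tgfb2* had the largest fall of all 53 genes in *Atg7*-KO;*p62T352A* against *Atg7*-KO mice (-4.12, SE 0.39, adjusted p = 7.61e-05), and *Tgfb1* and *Tgfb3* were at -1.95 and -2.46 there (adjusted p = 0.000403 and 0.000757).

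Most genes of the machinery around these ligands rose too. Of 22 tested genes for TGF-beta activation, receptors, SMADs and targets, 15 rose in *Atg7*-KO. The largest rise was that of *Itgb8*, a subunit of an integrin that frees TGF-beta from its latent complex. It had 0.115, 0 and 0 CPM in cont., 1.11, 0.699 and 0.853 in the *Atg7*-KO and no count in *Atg7*-KO;*p62T352A* mice (adjusted p = 0.00491 in *Atg7*-KO). *Itgb8* passed the filter on low counts only through the *Atg7*-KO mice, and the size of its rise is imprecise. The activator thrombospondin 1 (*Thbs1*) rose by 3.11 (SE 0.57, adjusted p = 0.00211), the receptor *Tgfbr2* by 2.43 (SE 0.31, adjusted p = 0.000307) and the target *Ctgf* by 1.49 (SE 0.27, adjusted p = 0.00194). In *Atg7*-KO;*p62T352A* against *Atg7*-KO mice 15 of the 22 were called lower. Against cont., 1 was called higher in *Atg7*-KO;*p62T352A* mice, the SMAD-induced *Pmepa1* (1.54, adjusted p = 0.0163), and 1 lower, *Smad2* (-1.10, adjusted p = 0.0132). Without *Atg7*-KO;*p62T352A* mouse 3 neither direction had a call, while 2 or 3 were called higher without cont. mouse 1 or 3 and 2 lower without cont. mouse 1 or 2.

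Enzymes that make collagen secretable rose in part. Of 19 tested genes for collagen maturation and secretion, 9 rose in *Atg7*-KO and 2 fell, and in *Atg7*-KO;*p62T352A* against *Atg7*-KO mice 6 were called lower and 2 higher (*Ppib* and *Bmp1*). Of all tested genes, 21.6% rose and 22.1% fell in the first contrast, and 26.2% were lower and 24.7% higher in the second. The procollagen N-proteinase *Adamts2* rose most (2.27, SE 0.39, adjusted p = 0.00141), and the collagen chaperone HSP47 (*Serpinh1*) had 16.4, 14.7 and 17.7 CPM in cont., 57.9, 68.4 and 61.5 in the *Atg7*-KO and 25.4, 24.7 and 31.5 in *Atg7*-KO;*p62T352A* mice, without overlap (1.95, SE 0.17, adjusted p = 4.88e-05 in *Atg7*-KO and 0.74, adjusted p = 0.0235, in *Atg7*-KO;*p62T352A* against cont. mice). The C-proteinase *Bmp1* fell by 2.03 (SE 0.33, adjusted p = 0.00104) and the export receptor *Mia3* fell by 1.09 (SE 0.22, adjusted p = 0.00369). In *Atg7*-KO;*p62T352A* against cont. mice, *Pcolce* was also called higher (1.04, adjusted p = 0.0383), and *P3h2* was called lower, with 0.344, 0.662 and 0.879 CPM in cont., 2.47, 2.10 and 2.30 in the *Atg7*-KO and 0, 0 and 0.0653 in *Atg7*-KO;*p62T352A* mice. The count that rose in *Atg7*-KO was under 9 in 7 of the 9 fits that left 1 mouse out, down to 6. The count higher against *Atg7*-KO was 1 without any 1 *Atg7*-KO mouse or without *Atg7*-KO;*p62T352A* mouse 2. Against cont., none was called higher without any 1 *Atg7*-KO mouse, *Atg7*-KO;*p62T352A* mouse 3 or cont. mouse 2, 1 without *Atg7*-KO;*p62T352A* mouse 1 or 2 and 4 without cont. mouse 3, and 4 were called lower without cont. mouse 1.

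Other basement membrane genes rose in 7 of 15 cases in *Atg7*-KO and fell in 2, *Lama3* (-3.36, adjusted p = 0.0124) and *Lama1* (-1.20, adjusted p = 0.00676), and 9 were called lower and 2 higher (*Lama1* and *Lama3*) in *Atg7*-KO;*p62T352A* than in *Atg7*-KO mice. Nidogen 1 (*Nid1*), which links laminin to collagen IV, had 20.3, 11.3 and 11.8 CPM in cont., 137, 200.0 and 183 in the *Atg7*-KO and 4.86, 9.25 and 5.74 in *Atg7*-KO;*p62T352A* mice, and it was called lower in *Atg7*-KO;*p62T352A* than in cont. mice (-1.14, adjusted p = 0.0442) together with *Lama4* (-0.81) and *Hspg2* (-0.94). Without *Atg7*-KO mouse 3 the count that fell in *Atg7*-KO was 1. The count higher in *Atg7*-KO;*p62T352A* than in *Atg7*-KO mice was 0 without *Atg7*-KO mouse 3 or *Atg7*-KO;*p62T352A* mouse 1 and 1 without *Atg7*-KO mouse 1, and the count lower than in cont. mice was 0 without any 1 *Atg7*-KO mouse, *Atg7*-KO;*p62T352A* mouse 3 or cont. mouse 2 and 1 without *Atg7*-KO;*p62T352A* mouse 2 or cont. mouse 3. Of 15 further proteases and inhibitors 10 rose in *Atg7*-KO, and 9 were called lower in *Atg7*-KO;*p62T352A* than in *Atg7*-KO mice. The largest rise there was that of matrilysin (*Mmp7*), with 0.0573, 0 and 0 CPM in cont., 24.2, 17.0 and 14.3 in the *Atg7*-KO and 0.500, 1.68 and 1.70 in *Atg7*-KO;*p62T352A* mice (adjusted p = 2.73e-05 in *Atg7*-KO and 0.00937 in *Atg7*-KO;*p62T352A*, both against cont.). With cont. mice at or near 0, the size of both differences of *Mmp7* is imprecise. In *Atg7*-KO;*p62T352A* against cont. mice *Adamts5* was also called higher (1.43) and *Adamts1* and *Adamts4* were called lower (-0.76 and -2.42). The count higher against cont. was 1 in 7 of the 9 fits that left 1 mouse out (all but those without *Atg7*-KO;*p62T352A* mouse 2 or cont. mouse 3), and the count lower was 1 without any 1 *Atg7*-KO mouse or without *Atg7*-KO;*p62T352A* mouse 2 or 3 and 0 without *Atg7*-KO;*p62T352A* mouse 1.

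Of 6 tested collagen receptors 4 rose in *Atg7*-KO, the kinase *Ddr1* most (3.70, SE 0.19, adjusted p = 6.29e-06) before the integrin subunit *Itga2* (2.48), the kinase *Ddr2* (0.88) and *Itgb1* (0.79), and *Itga10* fell (-2.51, adjusted p = 0.0137). In *Atg7*-KO;*p62T352A* against *Atg7*-KO mice 4 were called lower and 1 (*Itga10*) higher. The count that rose was 1 without *Atg7*-KO mouse 2 and 2 without cont. mouse 2, and none fell without *Atg7*-KO mouse 1 or cont. mouse 2. Of 8 cholangiocyte markers 6 rose in *Atg7*-KO and 4 were lower in *Atg7*-KO;*p62T352A* than in *Atg7*-KO mice, with summed levels of 29.3 to 46.2 CPM in cont., 115 to 164 in the *Atg7*-KO and 64.2 to 82.2 in *Atg7*-KO;*p62T352A* mice, and *Cftr* had 0.115, 0 and 0 CPM in cont., 4.26, 4.93 and 2.94 in the *Atg7*-KO and 0.500, 0.140 and 0.587 in *Atg7*-KO;*p62T352A* mice. Against cont., *Epcam* and *Sox9* were called higher in *Atg7*-KO;*p62T352A* mice (1.72 and 2.65). *Gpnmb* rose most among the macrophage markers, with 0.115, 0 and 0.220 CPM in cont., 18.4, 17.4 and 19.8 in the *Atg7*-KO and 0.928, 1.47 and 3.00 in *Atg7*-KO;*p62T352A* mice, where it and *Trem2* were called higher than in cont. (3.98 and 3.47). Of 8 sinusoidal endothelial markers 3 rose in *Atg7*-KO (1 without cont. mouse 2), most *Lyve1* (1.57), and *Stab2* fell (-1.19), 6 were called lower in *Atg7*-KO;*p62T352A* than in *Atg7*-KO and 5 (*Pecam1*, *Cdh5*, *Stab2*, *Oit3* and *Kdr*) lower in *Atg7*-KO;*p62T352A* than in cont. mice, with summed levels of 350.2 to 385 CPM in cont., 345 to 359 in the *Atg7*-KO and 172 to 209.8 in *Atg7*-KO;*p62T352A* mice. Of all tested genes, 21.6% rose and 22.1% fell in *Atg7*-KO. Lower in *Atg7*-KO;*p62T352A* mice were 26.2% of all tested genes against *Atg7*-KO and 5.34% against cont. mice. No marker list had a gene at 0 in every mouse, and the part of these cell types in the changes of the matrix genes was not tested.

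The 15 collagens that did not pass the filter were *Col2a1*, *Col6a4*, *Col6a6*, *Col8a2*, *Col9a1*, *Col9a2*, *Col10a1*, *Col11a1*, *Col17a1*, *Col19a1*, *Col22a1*, *Col24a1*, *Col25a1*, *Col26a1* and *Col28a1*, and *Col2a1*, *Col19a1* and *Col26a1* had no count in any mouse. *Col22a1*, found at tissue junctions, had no count in cont. and 27 in *Atg7*-KO mice together, at least 1.49-fold higher than a floor of 3 counts per library, and 9 in *Atg7*-KO;*p62T352A* mice. *Col9a1* had 14 counts in *Atg7*-KO mice and none in the other 6. *Col24a1*, a minor fibrillar chain, had 3, 13 and 18 counts in cont., 1, 4 and 1 in the *Atg7*-KO and 10, 3 and 8 in *Atg7*-KO;*p62T352A* mice (0.172, 1.23 and 1.98, 0.0484, 0.164 and 0.0427 and 0.714, 0.210 and 0.522 CPM in that order of genotypes), and it was called lower in *Atg7*-KO with no filter, without the 20 most abundant genes, without the mice numbered 1 and in 8 of the 9 fits that left 1 mouse out (all but that without cont. mouse 3). Without cont. mouse 1 it was called in both other contrasts as well.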

How the data were processed

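Livers of 9 mice, 3 per genotype, were analysed; 3 further mice of the series, which carried *p62T352A* with floxed, undeleted *Atg7*, are not analysed here. Per the labels and the study's methods, poly(A) RNA was sequenced as single-end reads, which the authors trimmed with Trim Galore, aligned to mm10 with STAR and quantified per gene with RSEM (versions, gene annotation and strand setting are not given in the sources used here). The values deposited by the authors are RSEM expected counts, estimated per gene and not normalized, and they were rounded to whole numbers here.

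All 3 genotypes entered 1 model in edgeR 4.0.16 (R 4.3.3) with TMM scaling, edgeR's filter on low counts and the quasi-likelihood test, with p adjusted by Benjamini-Hochberg over the 13922 genes that passed. Calls needed an adjusted p under 0.05 and a fold change over 1.5. The fit was also run on simulated counts with the same dispersion for every gene. That setting is simpler than these data and does not bear on the calls. RPKM used exon lengths from the GENCODE annotation, in which all 68 genes were found. Depth was 9671073 to 23285134 counts per mouse, so a gene with few counts is measured with a wide counting error, and intervals given for counts cover that error only. The mice are separate animals by their labels. Chain ratios were compared by two-sided exact permutation tests (scipy 1.17.1), and figures were drawn with matplotlib 3.10.9.

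The genes and lists were chosen with earlier results of these data known. Mouse-by-mouse values are given for the 5 largest called rises and the 5 largest called falls of each contrast with a mean of at least 1 CPM, and for a set of main collagen, protease, stellate cell and TGF-beta genes whatever their values; of other lists, the called gene with the largest rise and fall is named, as is any gene on which a count of 5 or fewer rests. *Dcn*, *Col15a1*, *Serpinh1*, *Nid1* and the remaining genes given with values were chosen after their values were seen. Some single genes of the lists are not reported here. Alternatives were DESeq2 1.42.0, other scalings and filters, other thresholds, the mouse number as a block, and fits without 1 mouse or without the mice numbered 1.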

Additional observations from a re-analysis of the deposited data

How the results depend on the processing

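In *Atg7*-KO against cont., 26 of the 44 calls were also made under every other setting but the test against a fold change of 1.5 (glmTreat), as were 26 of 44 for *Atg7*-KO;*p62T352A* against *Atg7*-KO and 0 of 8 for *Atg7*-KO;*p62T352A* against cont. mice. The stricter filter (at least 10 counts in every mouse) left fewer genes to test. In fits that left 1 mouse out, 36 of 44, 37 of 44 and 2 of 8 calls were made in all 9. These fits called 30 to 39 genes higher and 6 to 8 lower in *Atg7*-KO against cont., 4 to 7 and 35 to 40 in *Atg7*-KO;*p62T352A* against *Atg7*-KO, and 2 to 7 and 0 to 5 in *Atg7*-KO;*p62T352A* against cont. mice, with medians of 1.36 to 1.65, -1.76 to -1.40 and -0.073 to 0.16. The median for *Atg7*-KO against cont. was 1.43 with no filter on low counts and 1.73 under upper-quartile scaling, which moved the median of all genes by 0.11 there and by -0.14 for *Atg7*-KO;*p62T352A* against *Atg7*-KO. The stricter filter left 3 genes higher in *Atg7*-KO;*p62T352A* than in *Atg7*-KO and 3 higher in *Atg7*-KO;*p62T352A* than in cont. mice. For *Atg7*-KO;*p62T352A* against cont. mice, glmTreat called 2 higher and 0 lower, DESeq2 called 2 lower, and without the mice numbered 1 the count lower was 5. That last fit kept all 8 calls of this contrast and gained 6 (*Col7a1*, *Col11a2*, *Col20a1*, *Col24a1*, *Lum* and *Mmp14*). The samples correlated by mouse number only in part (mean correlations of deviations 0.22, -0.030 and 0.25 for numbers 1, 2 and 3). Between genotypes the correlations were 0.14 to 0.32 within numbers 1 and 3 and under 0.1 within number 2. Not every mouse was closest to its own number. The mice numbered 1 are those with few *Xist* counts, so that the block also takes up this difference. With the replicate block 4 genes were called higher in *Atg7*-KO;*p62T352A* than in cont. mice: *Col3a1*, *Dcn*, *Loxl1* and *Mmp13* lost their calls and *Col1a1* gained one. *Col4a4* gained a call in *Atg7*-KO against cont., and no call of these genes changed in *Atg7*-KO;*p62T352A* against *Atg7*-KO. Signs changed without the mice numbered 1 for *Fn1* in *Atg7*-KO against cont. (0.17), *Dcn* in *Atg7*-KO;*p62T352A* against *Atg7*-KO (0.13) and *Col5a3* in *Atg7*-KO;*p62T352A* against cont. (-0.35). With 1 mouse left out they also changed for *Fn1* (-0.36 to 0.15), *Col9a3* (-0.079 to 1.79) and *Col23a1* (-0.46 to 0.34) in *Atg7*-KO, for *Dcn* (-0.24 to 0.15) and *Col9a3* (-0.078 to 0.55) in *Atg7*-KO;*p62T352A* against *Atg7*-KO, for *Col5a3* in *Atg7*-KO;*p62T352A* against cont. (-0.042 to 1.27) and for the *Col4a1* to *Col4a2* ratio in *Atg7*-KO;*p62T352A* against cont. (-0.075 to 0.27). The cause of these changes was not tested. *Timp1* and *Mmp13* rest on 1 and 6 counts in cont. mice, which limits their precision. *Itgb8*, *Mmp7*, *Cftr* and *Gpnmb* were likewise at or near 0 in cont. mice.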
